A study of Mus musculus with 36 samples.

Results

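The TGF-beta ligands, receptors and Smads were examined in open-chromatin maps of the embryonic mouse hand and foot. The 10 genes were Tgfb1, Tgfb2 and Tgfb3 (ligands), Tgfbr1, Tgfbr2 and Tgfbr3 (receptors) and Smad2, Smad3, Smad4 and Smad7 (intracellular Smads). Members were defined by name, and each gene was given a window of its body plus 100 kb on either side on mm10. Peaks from all lists were merged wherever they shared at least 1 bp, and the merged regions that overlapped a window were assigned to that gene. This gave 153 regions of 65543 in all, for 10 of the 20032 protein-coding genes that had at least 1 region in such a window.

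Chromatin was assayed by ATAC-seq, which reads out where a transposase can insert sequencing adapters into DNA. The 36 libraries came from autopod chondrocytes of FVB/NJ embryos at E15.5, with no treatment or allele named, and fell into 12 groups of 3. The groups were metacarpals, hand phalanges, metatarsals and foot phalanges, each of digits I, III and V. Metacarpals and metatarsals are together called metapodials here. A library held elements from 3 to 5 littermates (6 to 10 limbs, left and right together), and the phalanges of a digit were pooled along its length, so neither single embryos nor single phalanges are resolved. One list of peaks was analysed for each group, called on its 3 libraries pooled. A list therefore carries no replicate error, and every SD below is between lists. The list names carry the label IDR p0.05, which stands for a filter on agreement between replicates. How it was applied was not stated in the sources used here.

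The lists held 36194 to 53276 peaks, and their weakest peaks had −log10 p-values of 23.0 to 49.6, so they did not end at a common significance. Read depth per library was unknown. Absence of a call can mean that a peak was too weak for the list or differed between replicates, not that the DNA was closed. The chondrocyte label was checked at gene ends. Sox9, Col2a1 and Acan had a region within 1 kb of an end in all 12 lists, and Matn1 and Col9a1 in 11. Markers of other tissues also had such regions. Sp7, Col1a1, Scx, Mkx, Kdr and Spi1 had one in all 12 lists, whereas Tnmd, Pecam1, Ptprc, Gata1, Krt5, Krt14 and Trp63 had none in any list. An open promoter is not a measure of expression, and the share of other cells in the tissue was not measured.

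TGF-beta ligands are secreted in a latent form, held in the matrix, and released to bind a receptor complex at the cell surface. The type II receptor (Tgfbr2) then activates the type I receptor (Tgfbr1), which phosphorylates Smad2 and Smad3. These pair with Smad4 and enter the nucleus to regulate genes, and Smad7 is induced by the pathway and inhibits it. In growth-plate cartilage the pathway is known for restraining the terminal maturation of chondrocytes, and in the digits for its part in joint and tendon formation.

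Promoter sequence was at hand for Tgfb1, Tgfb2, Tgfbr1, Tgfbr2 and Smad3, as 6 windows of 300 bases (250 before to 50 after the start) from RefSeq GRCm38.p6, which shares its coordinates with mm10. Tgfb3, Tgfbr3, Smad2, Smad4 and Smad7 had no entry. The windows are shown because the regions over 5 of them were open in every list while the sixth, at the other annotated start of Tgfbr1, was called in none. Capitals mark 4 motifs that were searched on both strands. They are TATAAA, the core of promoters with a TATA element, CCAAT, which nuclear factor Y binds, GGGCGG, the GC box bound by Sp1, and CACGTG, a palindromic E-box. No marked motifs overlapped. All sequences read 5′ to 3′ on the strand of the gene.
Tgfb1, chr7:25686752-25687051, plus strand: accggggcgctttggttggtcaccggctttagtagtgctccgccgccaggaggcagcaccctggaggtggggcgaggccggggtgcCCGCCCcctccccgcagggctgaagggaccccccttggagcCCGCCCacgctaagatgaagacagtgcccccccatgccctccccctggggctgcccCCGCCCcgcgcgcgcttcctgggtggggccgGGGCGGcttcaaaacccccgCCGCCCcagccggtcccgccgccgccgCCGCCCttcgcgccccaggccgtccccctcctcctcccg
Tgfb2, chr1:186705940-186706239, minus strand: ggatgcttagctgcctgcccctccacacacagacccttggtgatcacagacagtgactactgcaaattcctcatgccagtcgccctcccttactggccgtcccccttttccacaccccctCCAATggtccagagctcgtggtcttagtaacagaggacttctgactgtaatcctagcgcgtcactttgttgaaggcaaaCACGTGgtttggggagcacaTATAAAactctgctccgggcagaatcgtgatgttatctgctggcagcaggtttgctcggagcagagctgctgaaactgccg
Tgfbr1, chr4:47352972-47353271, plus strand: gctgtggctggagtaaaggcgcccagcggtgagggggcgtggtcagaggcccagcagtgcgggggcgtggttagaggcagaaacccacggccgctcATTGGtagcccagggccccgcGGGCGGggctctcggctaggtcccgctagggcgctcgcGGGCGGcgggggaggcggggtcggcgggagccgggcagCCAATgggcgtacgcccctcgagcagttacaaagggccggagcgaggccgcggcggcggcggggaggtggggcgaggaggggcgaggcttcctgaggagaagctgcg
Tgfbr1 at the other start, chr4:47385966-47386265, plus strand: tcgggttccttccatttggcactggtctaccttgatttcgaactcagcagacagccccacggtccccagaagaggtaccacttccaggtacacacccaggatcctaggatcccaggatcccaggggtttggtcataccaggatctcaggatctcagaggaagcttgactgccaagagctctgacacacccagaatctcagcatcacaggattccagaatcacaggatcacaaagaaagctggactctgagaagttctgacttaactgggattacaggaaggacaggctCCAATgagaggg
Tgfbr2, chr9:116175314-116175613, minus strand: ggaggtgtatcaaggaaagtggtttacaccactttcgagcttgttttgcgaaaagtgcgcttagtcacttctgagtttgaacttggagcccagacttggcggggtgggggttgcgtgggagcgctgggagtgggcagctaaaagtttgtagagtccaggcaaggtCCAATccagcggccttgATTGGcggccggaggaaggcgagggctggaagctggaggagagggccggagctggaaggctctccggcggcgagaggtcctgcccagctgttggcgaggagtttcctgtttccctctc
Smad3, chr9:63757945-63758244, minus strand: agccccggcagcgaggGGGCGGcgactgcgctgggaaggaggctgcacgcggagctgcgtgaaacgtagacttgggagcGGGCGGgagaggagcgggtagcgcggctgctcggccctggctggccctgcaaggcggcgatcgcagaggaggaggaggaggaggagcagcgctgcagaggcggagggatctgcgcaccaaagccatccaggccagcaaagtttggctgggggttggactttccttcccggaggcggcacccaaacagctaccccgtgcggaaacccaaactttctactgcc

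The called promoters differed in composition. The Tgfb1 promoter was 77.0% G+C with 6 GC boxes and none of the other 3 marked motifs. The Tgfb2 promoter was 54.3% G+C and was the only 1 of the 6 windows with TATAAA or CACGTG, each present 1 time, beside 1 CCAAT. The main Tgfbr1 promoter was 74.7% G+C with 2 CCAAT and 2 GC boxes, the Tgfbr2 promoter 59.0% with 2 CCAAT, and the Smad3 promoter 67.7% with 2 GC boxes. The uncalled window at the other Tgfbr1 start was 52.0% G+C with 1 CCAAT. Over 21263 promoter windows of protein-coding genes, 60.3% were called in all 12 lists (median G+C 62.3%) and 32.1% in none (median 46.0%). TATAAA occurred in 12.6% of those windows, CCAAT in 38.2%, GGGCGG in 46.2% and CACGTG in 7.8%. Also searched on both strands were TGACGTCA (the cAMP response element, in 2.2% of windows), TGANTCA (an AP-1 site, in 7.0%) and GTCTAGAC (a palindromic Smad-binding element, in 0.2%). These letters were not found in any of the 6 windows.

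All 10 genes had a region within 1 kb of a gene end that was called in every list. The region over the Tgfbr1 promoter (chr4:47349654-47355845) was the strongest of them. Its authors' fold enrichment was between 46.7 (metacarpal digit V) and 134.9 (hand phalanges digit III), with a median of 98.9, and within each list its peak stood at the 98.3rd to 99.7th percentile of significance. At Smad2 (chr18:76240112-76244053) the gene-end peak stood at the 90.2nd to 96.6th percentile, at Tgfbr3 (chr5:107286940-107291529) at the 84.1st to 93.3rd, and at Tgfbr2 (chr9:116170703-116176862) at the 84.3rd to 92.3rd. Smad3 (chr9:63753323-63760245) ranked between 77.4 and 91.9 and Smad4 (chr18:73699638-73705078) between 81.8 and 89.8. Among the ligands, Tgfb3 (chr12:86074916-86080715) lay between 77.5 and 85.1, Tgfb2 (chr1:186700080-186708860) between 71.1 and 83.4, and Tgfb1 (chr7:25685159-25690782) between 61.8 and 80.0. The ranks are the authors' peak values within a list and were not tested.

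At Smad7, the inhibitory Smad, open chromatin spread over most of the gene. The peaks of the 12 lists together merged into 1 region of 32952 bp (chr18:75362602-75395553) at a gene of 28.6 kb. Single lists covered 21711 to 32523 bp of it with 1 to 4 peaks, and the metacarpal of digit V, which covered least, had 4 peaks with gaps between them. Over its full window, open chromatin covered between 49.6 kb (metacarpal digit V) and 82.2 kb (metatarsal digit I) of 228.6 kb. At Smad3 the cover was 20.3 to 55.9 kb of 311.2 kb, and at Tgfb1 31.9 to 49.2 kb of 218.1 kb.

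Over the 10 windows together, the share of regions called in all lists was slightly above that of the series, through Tgfb1. Of the 153 regions, 61 (39.9%) were called in all 12 lists, 75 (49%) in 2 to 11 and 17 (11.1%) in 1 list, against 35.6%, 47.4% and 17% over all 65543 regions. By role, 20 of 41 ligand regions (48.8%), 15 of 48 receptor regions (31.2%) and 26 of 64 Smad regions (40.6%) were called in every list. Both the ligand share and the excess over the series rest on Tgfb1, where 11 of 13 regions (84.6%) were in every list. In the other windows the share ran from 22.2% at Tgfbr2 to 52.6% at Smad7. The Tgfb1 window holds 11 other protein-coding genes, and only 1 of its regions had Tgfb1 as the nearest gene. At Tgfb3 the shared regions were 4 of 16. Over all 10 genes the nearest gene end belonged to the member for 80 regions and to another gene for 73. Which gene a region acts on was not measured.

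**Figure D1:**
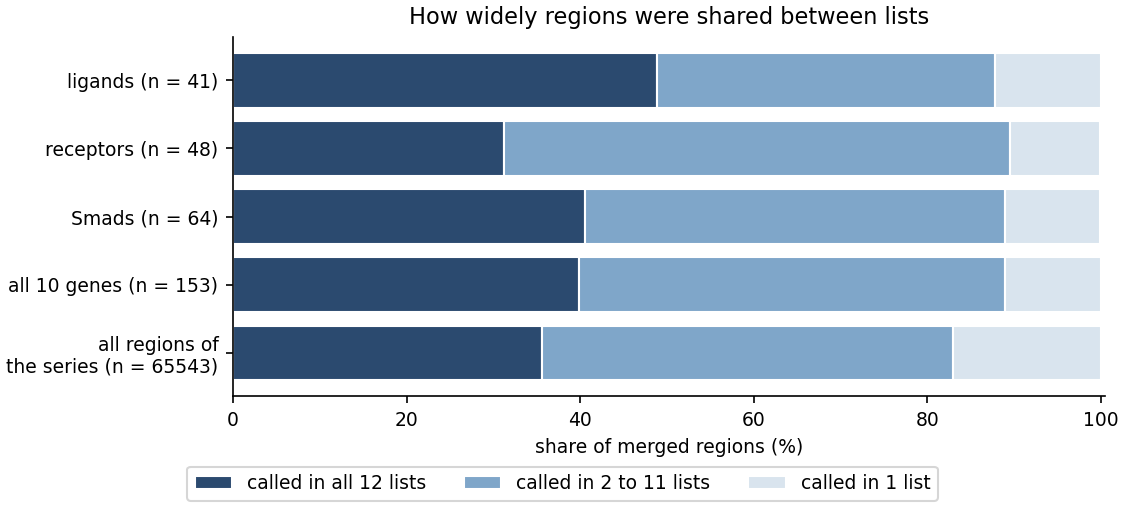
Share of merged regions called in all 12 lists, in 2 to 11 lists and in 1 list (horizontal axis, per cent) for the ligand, receptor and Smad windows, for all 10 genes and for all regions of the series. Receptor regions had the smallest share in all lists (31.2%) and ligand regions the largest (48.8%).

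The number of regions per gene ranged from 9 at Tgfbr2 to 28 at Tgfbr3, the co-receptor betaglycan, against a median of 9 (quartiles 6 and 13) over all genes. Tgfbr3 had more regions than 99.2% of genes, Smad3 (21 regions) more than 96.9%, Smad7 (19) more than 94.6% and Tgfb3 (16) more than 86.8%. Tgfb1 had 13, Tgfb2, Smad2 and Smad4 had 12 each, and Tgfbr1 had 11. Longer genes have longer windows. The Tgfbr3 window spanned 383.1 kb with 7.31 regions per 100 kb, below the 8.31 per 100 kb of the Smad7 window. At Tgfbr3, 16 regions overlapped the gene and 12 lay outside. At Smad3, 12 overlapped the gene (chr9:63646766-63757994) and 9 lay outside. Exons and introns are not told apart here.

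No ligand passed the tests of limb, element or digit described below. Tgfb1, the founding member of the ligand family, had 13 called regions in 10 lists, 12 in hand phalanges of digit V and 11 in the metatarsal of digit V. Tgfb2 had 8, 8 and 7 in metacarpals of digits I, III and V, 7, 6 and 5 in hand phalanges, 6, 7 and 6 in metatarsals and 5, 8 and 8 in foot phalanges. These ranges overlapped in all 4 elements. Tgfb3 had 8, 12 and 7 in metacarpals, 10, 10 and 9 in hand phalanges, 10, 8 and 10 in metatarsals and 10, 12 and 11 in foot phalanges. Its highest mean, 11 ± 1 (SD, n = 3 lists) in foot phalanges, exceeded the lowest, 9 ± 2.65 in metacarpals, by less than the metacarpal spread.

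Among the receptors, Tgfbr1, the signalling type I receptor, had 4, 8 and 4 called regions in metacarpals of digits I, III and V, 5, 5 and 4 in hand phalanges, 6, 7 and 5 in metatarsals and 4, 8 and 6 in foot phalanges. The 2 highest lists were both of digit III. Tgfbr2, the ligand-binding type II receptor, had 5, 6 and 5, then 6, 5 and 4, then 7, 5 and 4, then 5, 8 and 6 in the same order. Tgfbr3 had 17, 21 and 13, then 17, 15 and 14, then 20, 18 and 17, then 16, 18 and 18. No order of the 4 elements held for the receptors beyond the spread of the 3 lists in each.

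Among the Smads, Smad2, a receptor-activated Smad, had 6, 8 and 6 called regions in metacarpals, 11, 8 and 6 in hand phalanges, 7, 7 and 7 in metatarsals and 7, 8 and 8 in foot phalanges. Smad4, the common partner Smad, had 6, 12 and 7, then 5, 7 and 6, then 8, 6 and 4, then 6, 7 and 7. Smad3, the other receptor-activated Smad, had 14, 14 and 10 in metacarpals, 13, 14 and 14 in hand phalanges, 17, 15 and 14 in metatarsals and 18, 17 and 16 in foot phalanges. Its hindlimb lists were thus at or above every forelimb list. Smad7 had 14, 15 and 13 in metacarpals, 16, 17 and 14 in hand phalanges, 18, 15 and 14 in metatarsals and 18 in each list of foot phalanges. Both Smad3 and Smad7 were highest in foot phalanges (17 ± 1 and 18 ± 0, SD, n = 3 lists) and lowest in metacarpals (12.67 ± 2.31 and 14 ± 1), and the 2 elements between these overlapped in range for both genes.

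**Figure D2:**
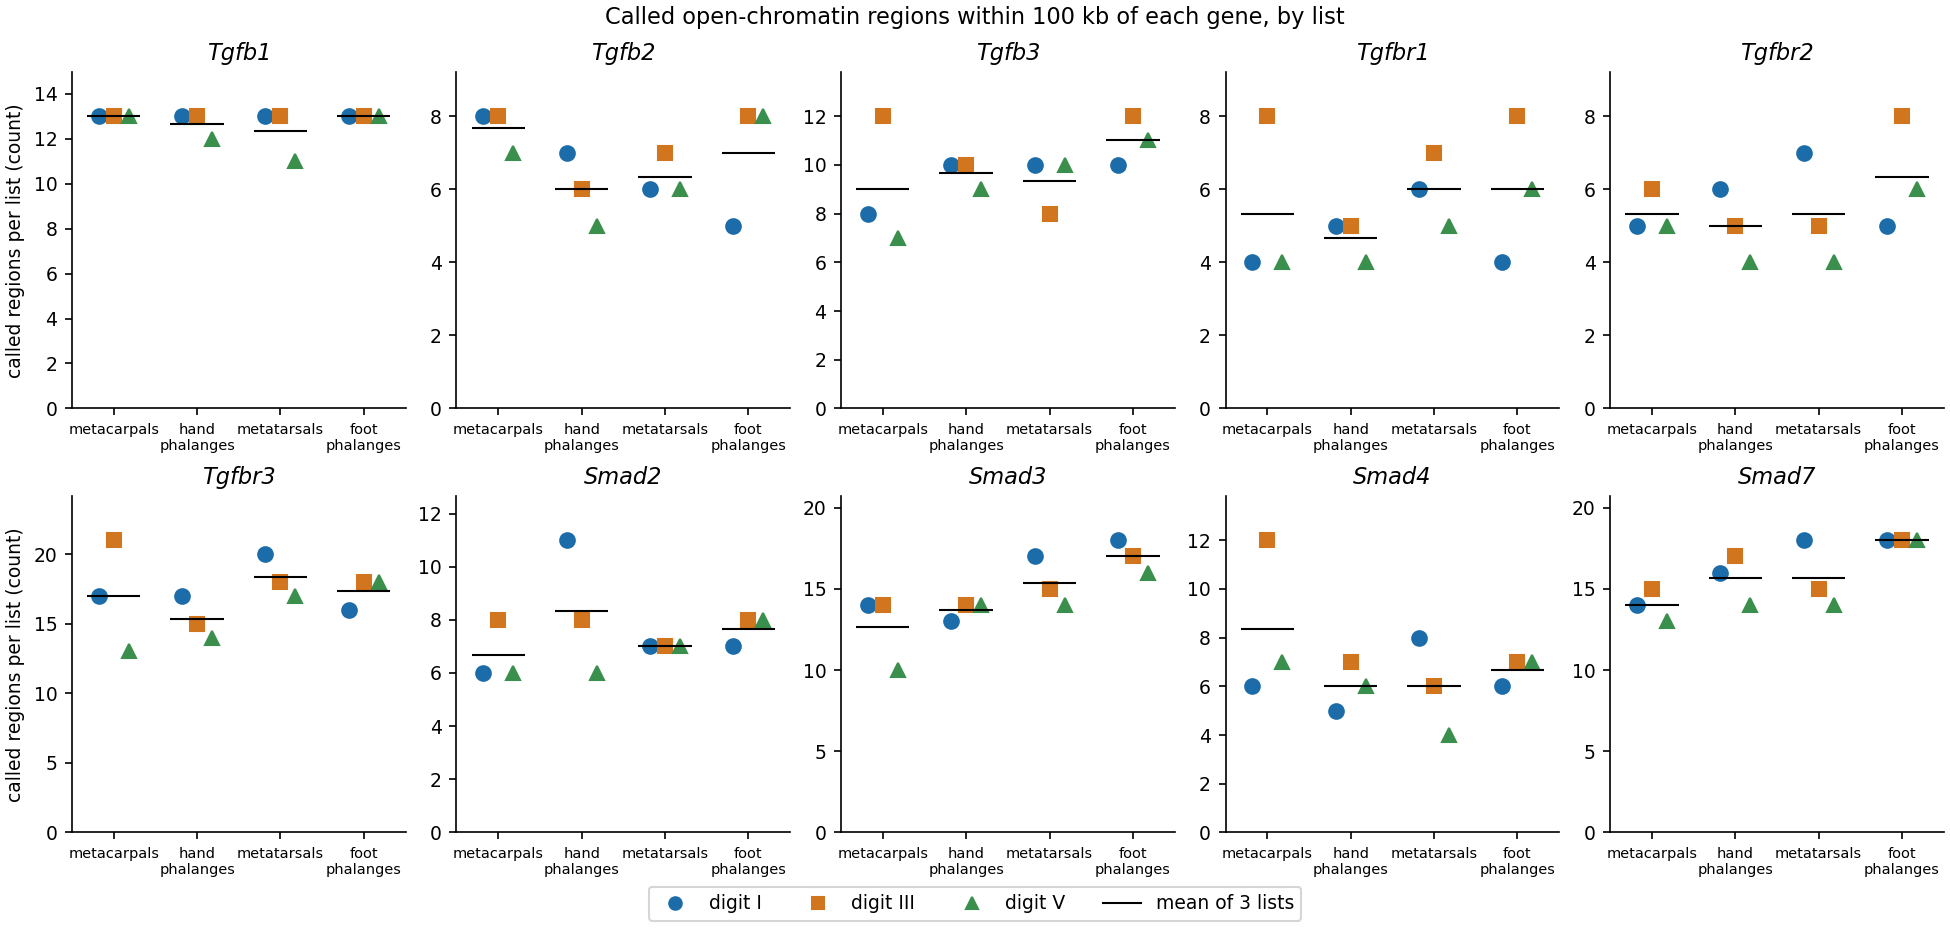
Called regions per list (vertical axis, count) within 100 kb of each of the 10 genes, by element and digit, with the mean of 3 lists as a bar. Smad3 ran from 10 to 14 in the forelimb lists and from 14 to 18 in the hindlimb lists, while Tgfb1 stayed between 11 and 13.

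The comparison of hindlimb with forelimb asks whether the genes had more open regions in the foot than in the hand. Smad3 was higher in the hindlimb, with 16.17 ± 1.47 called regions (SD, n = 6 lists) against 13.17 ± 1.6 in the forelimb. The difference was 3 regions and went the same way in 6 of 6 pairs of lists alike in element and digit, by 1 to 5 regions. The two-sided exact permutation p was 0.0312, the smallest that 64 labellings allow, and 1 after Benjamini-Hochberg adjustment over 20032 genes, so the difference did not pass the correction. Smad3 was the single member at an unadjusted p of at most 0.05, 1 of 10, where 1.1% of all genes reached it in either direction, 0.948% as higher and 0.15% as lower in the hindlimb.

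The Smad3 difference lay mainly within the gene. Of its net 18 additional hindlimb calls, 15 were in the 12 regions that overlap Smad3 and 3 in the 9 regions outside it. When each list was limited to its 36194 most significant peaks the difference was 2.83 with an exact permutation p of 0.0312. It did not reach the threshold among the more significant 50% of peaks (3.33, exact p = 0.0938) or per 10000 called regions (0.63, exact p = 0.0938). It also missed the threshold when only regions with Smad3 as the nearest gene were counted, and when the length covered by peaks was compared. Smad7 had 16.83 ± 1.83 in the hindlimb against 14.83 ± 1.47 in the forelimb (n = 6 lists each), higher in 5 of 6 pairs and equal in 1, with an exact permutation p of 0.0625. Its net 12 additional hindlimb calls lay outside the gene, and Smad7 had the nearest gene end for 5 of the 19 regions in its window. The exact p-values of the other 8 genes ran from 0.281 to 1. Among markers of other tissues, the muscle genes Myod1 and Myf5 had a gene-end region in 5 and 6 hindlimb lists against 3 and 4 forelimb lists, while Myog, the remaining muscle marker, had one in 1 and 2. Their part in the Smad3 difference was not tested.

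The comparison of phalanges with metapodials asks the same of the digit bones against the bones of the palm and sole. No member passed, where 3% of all genes did in either direction (1.38% higher and 1.61% lower in phalanges). Smad7 came nearest, with 16.83 ± 1.6 called regions in phalanges against 14.83 ± 1.72 in metapodials (n = 6 lists each), higher in 5 of 6 pairs and equal in 1. The exact permutation p was 0.0625, or 0.659 after adjustment over all genes. With lists cut to the same length the Smad7 difference was 2.17 with an exact permutation p of 0.0312. With flanks of 10 kb it was 0, and the regions that varied all lay farther out. The exact p-values of the other 9 genes ran from 0.188 to 1. Runx2, the osteoblast and maturing-cartilage regulator, had a gene-end region in 3 phalanx lists and 0 metapodial lists. Sp7 and Col1a1, the other markers of perichondrium and osteoblasts, each had one in 6 phalanx and 6 metapodial lists. The part of these cells in the Smad7 values was not tested.

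**Figure D3:**
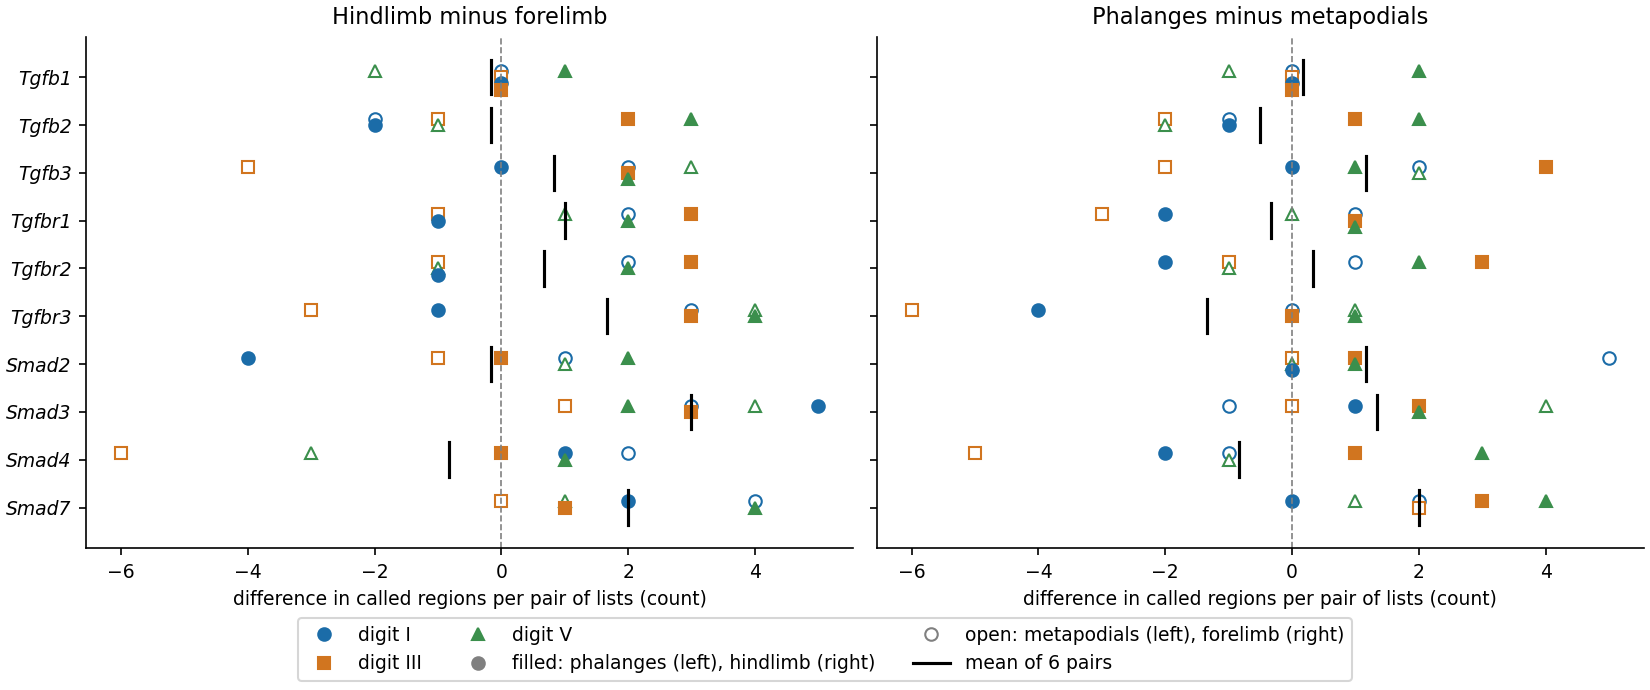
Difference in called regions (horizontal axis, count) between lists alike in the other factors, hindlimb minus forelimb (left) and phalanges minus metapodials (right), for each gene. Points are the 6 pairs and bars their mean, and Smad3 on the left is the single row with all 6 points above 0.

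The digit comparisons ask whether digit I, the thumb and great toe, or digit III or V differed from the others. Tgfbr1 was higher in digit III, with 8, 5, 7 and 8 called regions in its 4 lists (7 ± 1.41) against 4 to 6 in the other 8 lists (4.75 ± 0.89). The difference was 2.25 regions, with an exact permutation p of 0.0247 and an adjusted p of 0.248. It is 1 of 10 members at an unadjusted p of at most 0.05, where 16.3% of all genes reached it. Genes higher in digit III were 16.3% and genes lower 0.02%, so the count of members is no more than the background. Digit III lists held 44289 to 53276 peaks and the other lists 36194 to 46582, and the metatarsal of digit I was the single other list above the shortest digit III list. At equal list length the Tgfbr1 difference was 0.25 (exact permutation p = 0.556). It also missed the threshold without any 1 of 5 lists (metacarpals of digits I, III and V, the metatarsal of digit III and foot phalanges of digit III), with differences of 1.92 to 2.25 and exact permutation p-values of 0.0556 to 0.0741. The only region that overlaps Tgfbr1 was called in all 12 lists, so the difference lay outside the gene. Tgfbr1 had the nearest gene end for 3 of the 11 regions in its window.

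No member passed for digit I, where 2.18% of genes did (1.44% higher and 0.744% lower). None passed for digit V, where 5.57% did (0.0449% higher and 5.53% lower). In digit V, Smad3 had 10, 14, 14 and 16 called regions (13.5 ± 2.52, n = 4 lists) against 15.25 ± 1.83 in the other 8 lists, with an exact permutation p of 0.0617. Smad7 had 13, 14, 14 and 18 (14.75 ± 2.22) against 16.38 ± 1.6, with an exact permutation p of 0.0741. The Smad3 difference of −1.75 was 0.12 at equal list length, and digit V lists were among the shorter ones at 36700 to 39937 peaks.

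Single regions were then followed from list to list. None of the 153 regions was called in all hindlimb and no forelimb lists, a pattern held by 0.0763% of all regions, and none was called in all forelimb and no hindlimb lists (0.0061% of all regions). With a margin of 5 lists, 3 regions (1.96%) were biased to the hindlimb and 0 to the forelimb, against 0.459% and 0.0641% of all regions. The region in Smad3 (chr9:63744686-63748468), centred 11.4 kb inside the end that holds the promoter, was called in 6 of 6 hindlimb lists and in 1 of 6 forelimb lists, the metacarpal of digit III. The metacarpal III list is the longest of the 12, and the call there was a peak of 674 bp at the 9.8th percentile with a fold of 5.4. In the hindlimb lists the peaks covered 1594 to 3597 bp with folds of 5.6 to 8.4. Their percentiles ran from 5.8 (metatarsal of digit V), below that of the forelimb call, to 39.5 (metatarsal of digit I). At equal list length the region was called in 6 hindlimb and 0 forelimb lists.

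The other hindlimb-biased regions lay near receptors. At Tgfbr2, chr9:116188381-116190304, 14 kb upstream of the gene, was called in 5 hindlimb lists (all but the metatarsal of digit III) and in 0 forelimb lists, with folds of 5.9 to 9.5, and equal list length left these 5 calls in place. At Tgfbr1, chr4:47490003-47495300, 77.7 kb beyond the gene and nearer to Sec61b (9.4 kb), was called in 5 hindlimb lists (all but foot phalanges of digit I) and 0 forelimb lists, and in 3 of these at equal length. Both were absent from every hand list, including the longest.

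Between elements, 2 regions (1.31%) were biased to phalanges by at least 5 lists and 0 to metapodials, against 0.594% and 0.636% of all regions. The Tgfbr2 region chr9:116209625-116211100, 35 kb upstream, was called in 6 phalanx lists and 0 metapodial lists, a pattern held by 0.119% of all regions, with 0.0915% showing the reverse. Its folds were 6.7, 5.6 and 5.4 in hand phalanges of digits I, III and V and 6.4, 7.8 and 6.3 in foot phalanges. Within these lists its percentiles were 12.1, 3.4, 7.3, 10.9, 37.8 and 26.1 in the same order, so most of its peaks were close to the lists' thresholds. At equal list length 5 phalanx calls were left and no metapodial call. All 6 peaks shared a stretch of 651 bp (chr9:116209778-116210428). The Tgfbr2 window thus held a hindlimb-biased region and, farther upstream, a phalanx-biased one.

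The other phalanx-biased region, chr18:75432975-75435837, lay within Ctif, 38.5 kb from Smad7. It was called in 6 phalanx lists and in 1 metapodial list, the metatarsal of digit I, with folds of 5.4 to 9.9. At equal list length it was called in 5 phalanx lists and 1 metapodial list.

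For digits, 1 of the 153 regions separated digit I from the other digits. The region chr18:76373948-76376596, 63.5 kb from Smad2, was called in 4 of 4 digit I lists and 0 of 8 others, a pattern held by 4 regions of 65543 (0.0061%), with 0.00153% absent from digit I and present in all others. Allowing 1 other list, 0.0183% of all regions were biased to digit I, 0.485% to digit III and 0.00305% to digit V, and the Smad2 region was the single one in the 10 windows. Its folds were 9.7 in the metacarpal, 9.0 in hand phalanges, 5.5 in the metatarsal and 7.2 in foot phalanges, at percentiles of 24.8, 35.0, 9.3 and 22.2. The peaks shared a stretch of 543 bp. At equal list length the metatarsal call was lost and 3 lists were left. No region separated digit III or digit V, patterns held by 0.117% and 0.00153% of all regions, and none was missing from digit V alone (0.0259%) or digit III alone (0%).

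**Figure D4:**
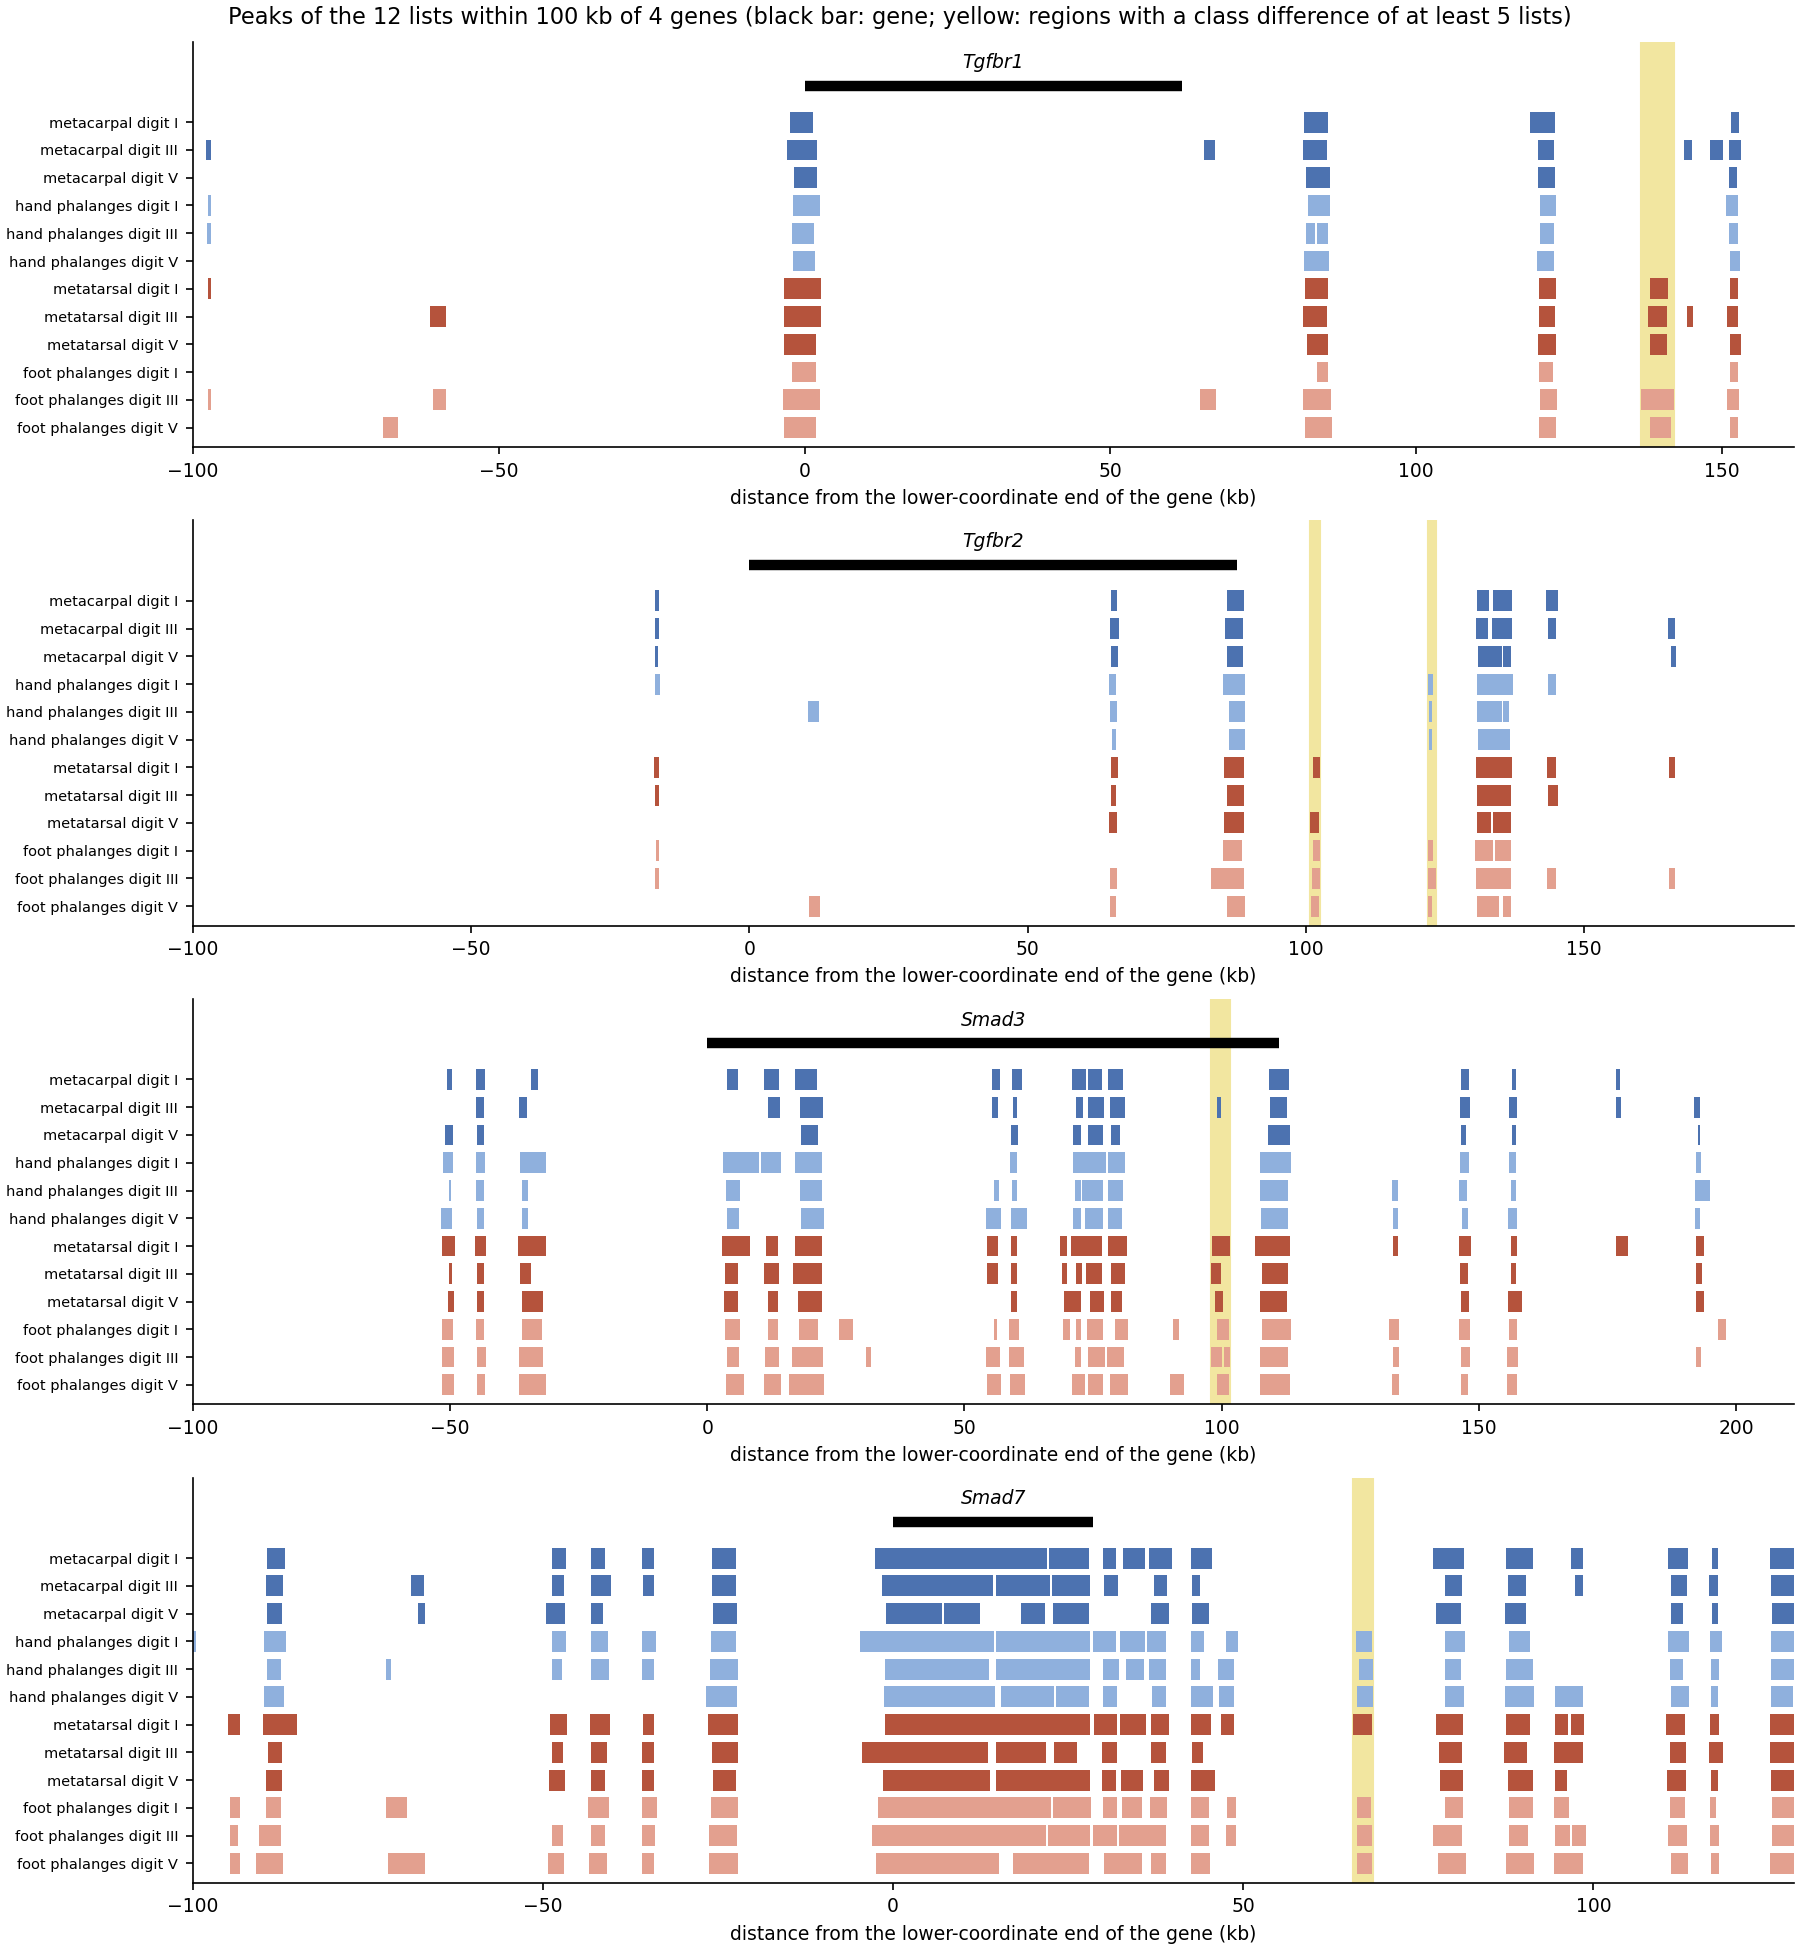
Peaks of the 12 lists (rows) in the windows of Tgfbr1, Tgfbr2, Smad3 and Smad7, by distance from the lower-coordinate end of each gene (horizontal axis, kb), with regions that differ by at least 5 lists between limbs or elements in yellow. Peaks at the promoters recur in all 12 rows, whereas the yellow regions are empty in most rows of the opposite class.

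All 6 of these class-biased regions ranked low in the lists that held them. Their highest percentile in any list was 46.1, at Tgfbr2, while the gene-end regions over the 5 promoters never fell below 61.8. The region at the other end of Tgfb1 (chr7:25703070-25716429), also called in all 12 lists, fell to 50.6. The 6 regions were chosen for calls missing from a class, whereas the gene-end regions were called in every list. These sets therefore cannot be compared in rank apart from how they were picked, and the cause of the gap was not tested. All 6 are described here by the lists that called them, without a test.

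**Figure D5:**
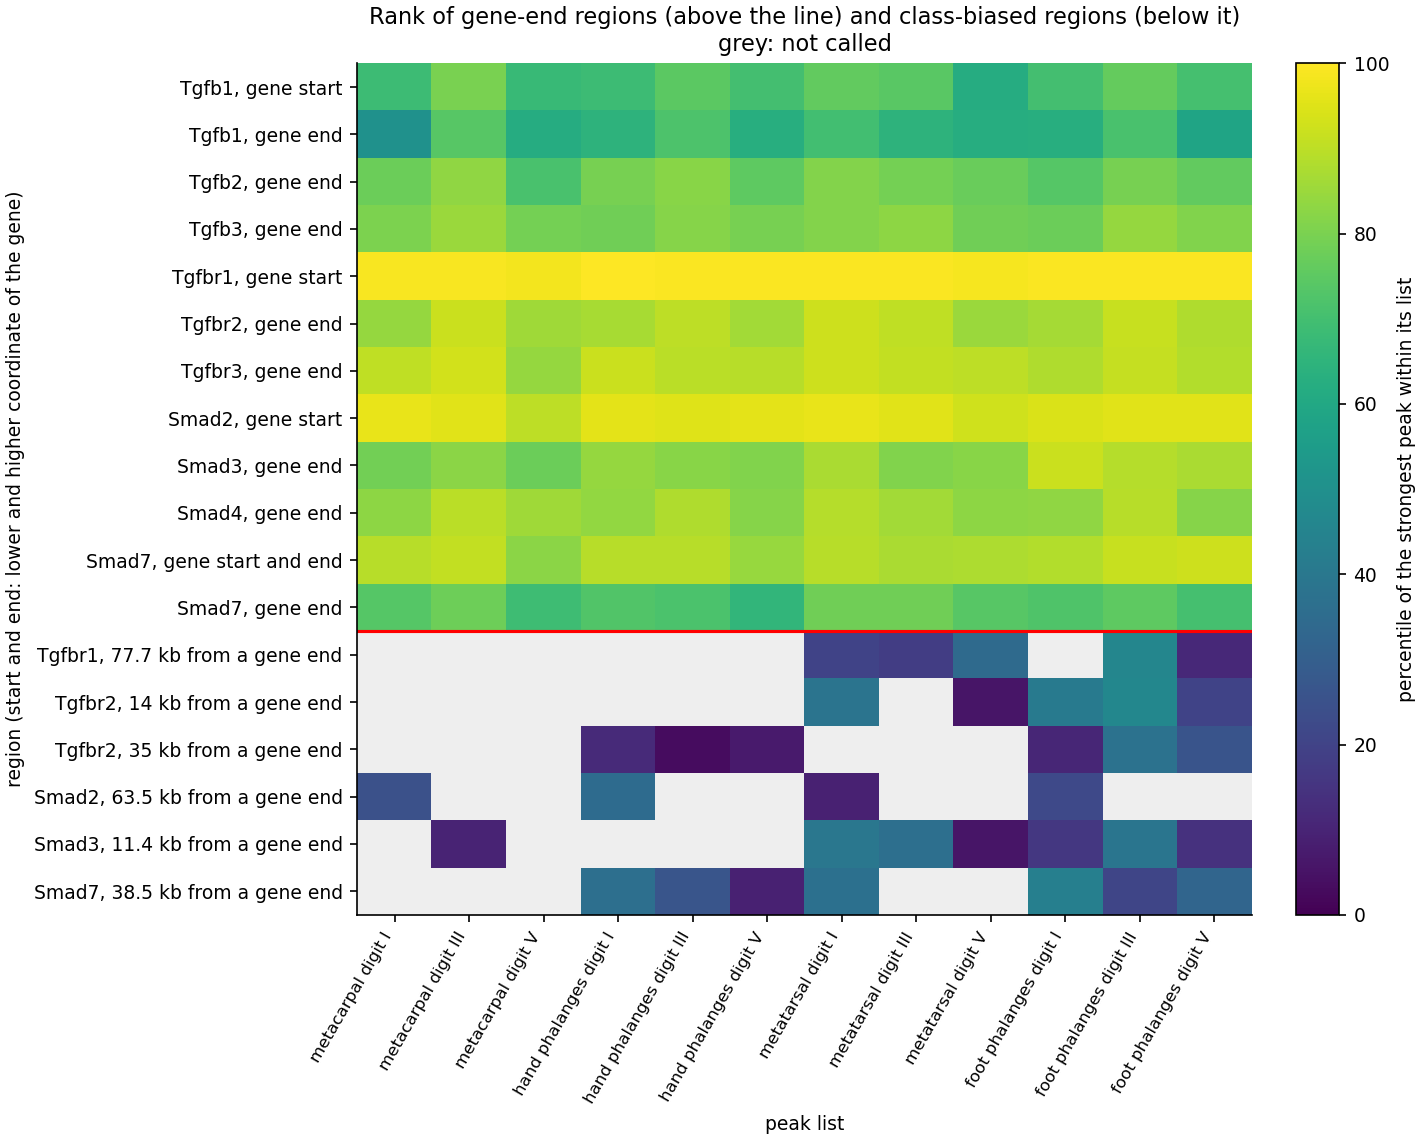
Percentile of the strongest peak within its list (colour, by the authors' −log10 p-value) for regions at gene ends (above the line) and for the 6 class-biased regions (below it), with lists as columns and grey where a region was not called. Class-biased regions stayed at or below 46.1 in every list that called them.

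Other genes of the pathway were taken from a list of 45, all with at least 1 region. For the limb comparison 0 of 45 passed in either direction, beside 1.1% of all genes. Their median difference of 0.17 regions equalled the 0.17 over all genes. As examples, the fibrillins Fbn1 and Fbn2, which anchor latent ligand, had hindlimb minus forelimb differences of 0.5 and 3 regions (exact permutation p = 0.875 and 0.125). For the activin-type receptors Acvr1b and Acvr1c these were 3 and 0.5 (exact permutation p = 0.125 and 0.75), and for the activin antagonist Fstl3 and the activin subunit Inhbb 0 and 1 (exact permutation p = 1 and 0.25). Smad5 of the BMP branch and its inhibitory Smad6 had −0.5 and 0.5 (exact permutation p = 0.688 and 0.625). The Smad inhibitors Pmepa1 and Skil had 1 and −0.17 (exact permutation p = 0.25 and 1), and the matrix target genes Ccn2 and Postn 1.17 and 0.17 (exact permutation p = 0.531 and 1).

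For the element comparison 1 of 45 passed, beside 3% of all genes. It was Itgav, an integrin subunit that activates latent TGF-beta. It had 8.83 ± 1.83 called regions in phalanges and 11 ± 1.41 in metapodials over 6 lists of each, for an exact permutation p of 0.0312 and an adjusted p of 0.659. For digit I, where 2.18% of all genes passed, 1 of 45 did. Ski, a co-repressor of Smads, was higher (15.25 ± 0.96, n = 4 lists, against 13.38 ± 1.06, n = 8, exact permutation p = 0.037, adjusted p = 1). For digit III, 9 of 45 were higher and 0 lower (Ltbp1, Itgav, Furin, Inhba, Gdf11, Fst, Smad1, Smad9 and Pthlh), beside 16.3% of all genes. Pthlh, the signal that keeps chondrocytes proliferating, had 5.5 ± 0.58 in digit III against 3 ± 1.07 (n = 4 and 8 lists, exact permutation p = 0.0123, adjusted p = 0.248). Digit III lists were the longer ones, with a mean of 47308 peaks against 40211 in digit I and 37919 in digit V. Values of these pathway genes at equal list length are not given here. For digit V, Ltbp1, Itgav and Eng were lower and 0 were higher, beside 5.53% of all genes lower, and no gene of the list had an adjusted p at the threshold in any comparison.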

How the data were processed

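ATAC-seq peak lists of 12 groups, each pooling 3 libraries, were analysed. Tools listed in the submitters' processing notes were Bowtie2 2.3.4.1, Picard 2.9.0 and MACS3, with mm10 as build and no roles stated. Apart from the IDR label in the list names, the shift of cut sites, trimming and filters were not given in the sources used here. An unshifted call would displace edges by far less than the median peak widths of 1739 to 2223 bp. For each peak the authors deposited a score, a −log10 p-value and, as a ratio, the fold over background. These were used only to rank or limit peaks within a list, and the score was not otherwise used.

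Peaks sharing at least 1 bp across lists were merged. A list called a region if any of its peaks overlapped it, and genes were counted over their body and 100 kb flanks. Gene positions came from RefSeq GRCm38.p6, without exons. Differences in mean called regions were tested for 20032 protein-coding genes with two-sided exact permutation tests. Labels were swapped among lists alike in the other 2 factors (64 labellings for limb or element, smallest p 0.0312, and 81 for a digit, smallest p 0.0123). Benjamini-Hochberg adjustment ran over all genes, and a gene passed at an unadjusted p of at most 0.05. The p-values measure the spread between lists, and no counts per library were used, so replicates could not be compared. A region separated a class when called in all of its lists and no others.

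All 10 members were described. Regions named were those at gene ends and those that separated a class, differed by at least 5 lists between limbs or elements, or were called in all 4 lists of a digit and at most 1 other. Pathway genes were named when they passed, or as the first 2 of each role in alphabetical order among those that never passed. Members, lists and tests were chosen with earlier results of these data known. Alternatives were equal list length (36194 peaks), the more significant 50% of peaks, 50% cover, 500-bp summit windows, flanks of 10 and 50 kb, nearest gene only, covered length, calls per 10000, unstratified labels and leaving out each list. Python 3.11.15, numpy 2.4.6, pandas 2.3.3 and scipy 1.17.1 were used.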

Additional observations from a re-analysis of the deposited data

Results flagged for a closer look

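Of 70 groups of lists examined (10 genes in 7 classes), 10 held a list that stood far from the rest. Chance flags about 1 in 20 groups where values are continuous. The rate for small whole numbers with ties, as here, was not tested. At Tgfb1 the metatarsal of digit V had 11 called regions, the lowest of the hindlimb lists and of the metapodial lists, where every other list had 13. Hand phalanges of digit V had 12 at Tgfb1, the lowest of the forelimb lists and of the phalanx lists, again with all others at 13. The metacarpal of digit V had 10 called regions at Smad3, below the 13 of the next forelimb list. The metacarpal of digit III, the longest list, had 8 at Tgfbr1, where the next forelimb list had 5. The same list had 12 at Smad4, the highest of the forelimb lists and of the digit III lists, where the next had 7 in each class. The metacarpal of digit I had 8 at Tgfb3 against 10 in the other digit I lists. The metatarsal of digit III had 7 at Smad2 against 8 in the other digit III lists.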

How the results depend on the processing

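No paired analysis was possible because each list pools its 3 libraries, so replicate numbers could not be used. Lists alike in the other factors were paired in the tests of limb and element. Percentages below are the share of all genes passing under the same setting. For the limb comparison, the members passing numbered 2 at equal list length (Tgfb3 and Smad3, 1.26%) and 0 with the more significant 50% of peaks (0.34%), the nearest gene only (0.338%), covered length (4.64%) or calls per 10000 (4.61%). For the element comparison they numbered 1 at equal list length (Smad7, 4.9%) and 3 per 10000 calls (Tgfb3, Smad2 and Smad7, 12.5%). For digit I they numbered 1 at equal list length (6.06%) and 1 per 10000 calls (8.04%), Smad7 in both. For digit III they numbered 2 at equal list length (Tgfb3 and Smad3, both lower, 5.03%), 2 with the more significant 50% of peaks (Tgfbr1 and Tgfbr3, 9.76%), 3 per 10000 calls (Tgfb1 and Smad7 lower, Tgfbr1 higher, 29.3%), 0 with 10 kb flanks (5.8%), 50 kb flanks (10.9%) or the nearest gene only (7.93%), and 0 to 1 without 1 list. For digit V they numbered 1 with the more significant 50% of peaks (Tgfbr2, 6.03%), 50% cover (Tgfb1, 4.63%), summit windows (Smad7, 6.6%), 50 kb flanks (Smad7, 3.39%) or covered length (Tgfbr3, 6.66%), all lower, and 0 to 1 without 1 list (1 without hand phalanges of digit I or foot phalanges of digit V). For limb and element no member can pass without 1 list, as the smallest p is then 0.0625.

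Separating regions for limb numbered 1 at equal list length (the region in Smad3), and 0 to 1 without 1 list (1 without the metacarpal of digit III, the metatarsal of digit III or foot phalanges of digit I). For element they numbered 0 with the more significant 50% of peaks, 50% cover or 10 kb flanks, and 1 to 2 without 1 list (2 without the metatarsal of digit I). For digit I they numbered 0 at equal list length, with the more significant 50% of peaks, 50% cover, 10 kb flanks or 50 kb flanks. For digit V they numbered 1 with 50% cover. Stretches of at least 500 bp, an alternative chosen after seeing the data, gave 1 for element and 1 for digit I. Over the whole genome, 106 such stretches were higher in phalanges and 74 lower, and 10 were higher in digit I and 9 lower. For the other settings the share over all regions is not given here, so these counts are not read as traits of the members.

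The Smad3 limb difference ran from 2.37 to 3.43 without 1 list. Its exact permutation p-values ran from 0.0108, with unstratified labels that ignore the pairing, to 0.0938 over the alternatives. With paired labels the exact permutation p cannot go below 0.0312. Direction changed for the digit V differences of Smad3 (0.12 at equal list length, 0.04 per 10000 calls) and Smad7 (0.11 per 10000 calls). The cause was not tested. The 44 other pairs of gene and comparison were those with an exact permutation p over 0.1 in the main test. Of their 440 alternative values, 62 changed sign and 13 passed, 4 of these with a changed sign. The shares of all genes passing under those settings are given above. Depth per library was unknown, and list thresholds limit what an absent call can show.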
